A study of Homo sapiens with 6 samples.

Results

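The 10 genes described here encode growth factor receptor tyrosine kinases, and they were chosen by name from the 56638 genes of a ChIP-seq count table. EGFR, ERBB2 and ERBB4 belong to the ERBB family. PDGFRA, PDGFRB and KIT form a family of receptors for platelet-derived growth factors and stem cell factor. FGFR1 and FGFR2 bind fibroblast growth factors, MET binds hepatocyte growth factor, and IGF1R binds the insulin-like growth factors. All 6 libraries were made from G401, an established malignant rhabdoid tumor cell line in which SMARCB1, a subunit of the SWI/SNF chromatin remodeler, is missing. The cells received DMSO, the solvent, or 3 µM MAK683 over 3 days. MAK683 binds EED, the subunit of Polycomb repressive complex PRC2 that recognizes H3K27me3. Chromatin of each treatment was sequenced after precipitation with an antibody against H3K27me3, after precipitation with an antibody against H3K4me3, and without precipitation as input, with 1 library each. A single line without replicates limits every statement below: no p-value was computed, and the 95% intervals cover counting error only.

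Library totals were between 13308099 and 21281877 counts. At this depth 3 counts, a floor set by choice, were worth between 0.141 and 0.225 CPM (counts scaled to the library total). SMARCB1, the gene this line is described as lacking, had 0 counts in both inputs and at most 4 in any precipitated library. Because the values are counts over genes and the spike-in scaling that the methods describe is not part of them, they describe what part of a library each gene took, and say nothing of total amounts of a mark. A level over input is the log2 ratio of the CPM of the antibody and of the input of the same treatment, with 0.05 CPM added to both. A change is the log2 ratio of the MAK683 count and the DMSO count, each with 1 count added. The median gene had a change of -0.44 for H3K27me3, -0.11 for H3K4me3 and 0.22 for input, and changes are given below relative to it.

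Receptor tyrosine kinases span the plasma membrane. Most pair up when a ligand binds outside the cell, and paired receptors phosphorylate each other's tails to start RAS-MAPK and PI3K signaling. H3K27me3 is written by PRC2 and marks genes that are held silent, often over broad domains. H3K4me3 sits in narrow peaks at the starts of genes that are active or poised, and it often lies over promoters rich in CpG dinucleotides.

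The promoters of 5 receptor genes are shown because these genes stood at the opposite ends of the H3K27me3 order described below. In DMSO, KIT, EGFR and MET had the highest levels over input, and FGFR2 and PDGFRB the lowest. Each sequence runs from 250 bases before to 50 bases after the first start that RefSeq lists (table on GRCh38.p14), is written 5′ to 3′ on the strand of the gene, and has its CpG dinucleotides, the letters CG, in capitals. CG reads the same on both strands. The windows were placed on GRCh37, the build called hg19, by an exact match that occurred once for each of the 9 receptor genes in the table, and FGFR1 is named only.
KIT, chr4:55523874-55524173, plus strand: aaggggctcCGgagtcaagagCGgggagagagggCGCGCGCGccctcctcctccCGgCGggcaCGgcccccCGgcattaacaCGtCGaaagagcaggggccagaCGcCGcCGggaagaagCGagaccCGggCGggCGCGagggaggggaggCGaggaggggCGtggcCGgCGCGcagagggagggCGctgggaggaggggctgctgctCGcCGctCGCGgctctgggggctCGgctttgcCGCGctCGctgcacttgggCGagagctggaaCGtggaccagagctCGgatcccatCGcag
EGFR, chr7:55086460-55086759, plus strand: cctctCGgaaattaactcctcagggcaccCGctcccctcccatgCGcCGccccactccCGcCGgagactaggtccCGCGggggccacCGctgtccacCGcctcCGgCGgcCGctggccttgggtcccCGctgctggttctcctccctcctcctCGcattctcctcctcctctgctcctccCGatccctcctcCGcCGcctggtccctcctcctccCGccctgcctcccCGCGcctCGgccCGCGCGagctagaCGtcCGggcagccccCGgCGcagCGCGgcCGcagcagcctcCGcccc
MET, chr7:116312000-116312299, plus strand: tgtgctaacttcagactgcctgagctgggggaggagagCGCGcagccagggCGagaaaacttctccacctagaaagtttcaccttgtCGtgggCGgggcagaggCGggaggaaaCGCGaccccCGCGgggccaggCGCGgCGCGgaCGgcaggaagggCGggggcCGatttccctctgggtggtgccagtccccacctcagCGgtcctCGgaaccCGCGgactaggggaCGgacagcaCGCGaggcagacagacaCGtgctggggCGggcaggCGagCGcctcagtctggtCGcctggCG
FGFR2, chr10:123357909-123358208, minus strand: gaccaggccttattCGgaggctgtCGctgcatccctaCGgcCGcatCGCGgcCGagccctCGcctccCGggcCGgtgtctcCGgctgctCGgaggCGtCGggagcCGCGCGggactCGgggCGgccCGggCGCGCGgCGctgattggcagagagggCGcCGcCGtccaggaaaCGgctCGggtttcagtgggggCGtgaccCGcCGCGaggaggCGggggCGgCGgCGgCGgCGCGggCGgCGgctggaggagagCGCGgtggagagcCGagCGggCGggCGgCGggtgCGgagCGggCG
PDGFRB, chr5:149535359-149535658, minus strand: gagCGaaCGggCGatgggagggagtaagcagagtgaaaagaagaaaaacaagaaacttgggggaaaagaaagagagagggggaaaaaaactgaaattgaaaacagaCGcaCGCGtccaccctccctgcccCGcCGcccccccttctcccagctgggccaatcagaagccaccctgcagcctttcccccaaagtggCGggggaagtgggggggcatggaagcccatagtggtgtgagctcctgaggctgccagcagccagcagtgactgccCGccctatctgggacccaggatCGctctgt
The 300 bases held 38 CpG dinucleotides in KIT, 33 in EGFR, 30 in MET, 52 in FGFR2 and 11 in PDGFRB. At least 1 CpG was present in 95.8% of 27305 promoters, and the median promoter held 14. At least as many as in KIT were found in 9.69% of promoters, as many as EGFR in 16.9%, as many as MET in 22.1%, as many as FGFR2 in 0.795% and as many as PDGFRB in 54.4%. The 3 genes with the highest H3K27me3 therefore all had more CpG than the median promoter. The 2 with the lowest in DMSO lay on both sides of it. Of the windows not shown, IGF1R (55), ERBB2 (24) and ERBB4 (19) also lay above the median, and PDGFRA (8) lay below it. A CpG count above the median was thus not particular to the genes with high H3K27me3. The counts cover genes and not these windows, so no reads can be assigned to the sequences.

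Input reads followed the length of the receptor genes, and this sets how far they can be compared. Counted over the part of each gene that no other annotated gene overlaps, both inputs together gave between 23.3 per kb for ERBB4, the longest gene at 1163 kb (chr2:212240442-213403565), and 33.3 per kb for EGFR (193 kb, chr7:55086710-55279321). For 6764 genes with at least 1000 input counts and at least 50% of unshared span, the median was 27.1 per kb and the 10th to 90th percentiles ran from 23.7 to 30.1. EGFR and PDGFRB, with 31.3 per kb, lay above that range and ERBB4 lay below it. Whether the number of gene copies differs between these loci was not tested, and levels are taken over the input of the same gene.

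PDGFRA was the exception. It spans 69.0 kb (chr4:55095447-55164412) but its input counts were 39 with DMSO and 35 with MAK683, or 1.07 per kb of its span. A protein-coding gene that reads through from the FIP1L1 locus (ENSG00000282278, chr4:54244006-55161439) overlaps all of PDGFRA in GENCODE release 44 except the last 2.97 kb, and over that stretch the input came to 24.9 per kb, within the range above. FIP1L1 itself held 6128 and 7195 input counts, 153 per kb of its own span, and the 3 genes LNX1, CHIC2 and GSX2 between them had 0. PDGFRA had 64 and 30 counts of H3K27me3 and 16 and 27 of H3K4me3, in DMSO and MAK683. These few counts do not describe the gene body, and levels are given for the other 9 receptor genes, each of which had at least 100 input counts.

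In DMSO the 9 receptor genes separated into those with H3K27me3 above input and those with H3K4me3 above input, and no gene had both. KIT, EGFR, MET and ERBB4 had H3K27me3 above input and H3K4me3 below it. ERBB2, FGFR1, FGFR2, PDGFRB and IGF1R had the reverse. The same split was present in MAK683. Among 21263 genes with at least 100 input counts, 27.3% had H3K27me3 above input in DMSO and 28.5% in MAK683. H3K4me3 was above input in 43.8% of them in DMSO and 45.8% in MAK683. Both modifications were above input in 2.89% in DMSO and 4.62% in MAK683, so a count of 0 among 9 is near the background. The median H3K27me3 level of the 9 receptor genes in DMSO was -0.67, against -0.75 over all 21263 genes.

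**Figure D1:**
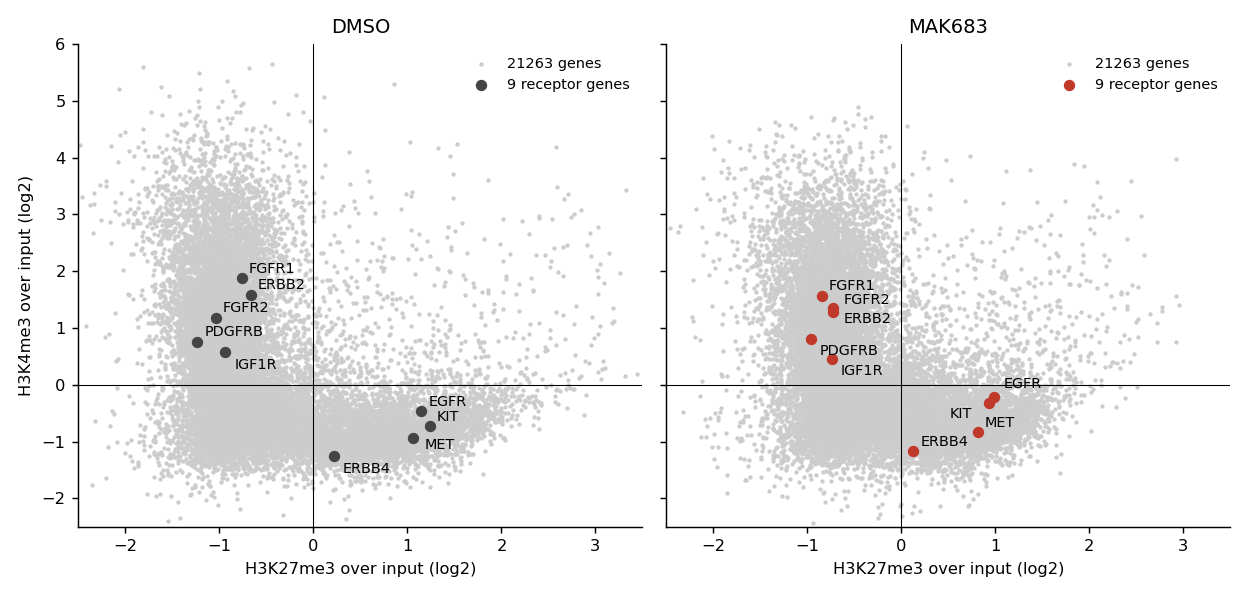
H3K27me3 over input (x axis, log2 CPM ratio) against H3K4me3 over input (y axis, log2 CPM ratio) in DMSO and in MAK683, with 21263 genes in grey and 9 receptor genes in color. KIT, EGFR, MET and ERBB4 lie in the lower right quadrant and the other 5 in the upper left in both treatments, and KIT and EGFR lie higher in MAK683 than in DMSO.

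KIT, the receptor for stem cell factor that melanocytes, germ cells and blood progenitors depend on, had the highest H3K27me3 level (83.5 kb, chr4:55523434-55606949). Its H3K27me3 counts were 2569 with DMSO and 1523 with MAK683, against 956 and 1168 in input. The level over input was 1.24 in DMSO (interval 1.13 to 1.35), above 93.4% of genes, and 0.93 in MAK683 (0.82 to 1.05). H3K27me3 thus stayed above input in both treatments and was lower in MAK683 by 0.30 (interval of the difference -0.46 to -0.15).

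For EGFR, the receptor for epidermal growth factor, 6958 reads of the DMSO and 4513 of the MAK683 library of H3K27me3 were counted, and 2761 and 3339 of the inputs. Its level was 1.15 (1.08 to 1.21) in DMSO and 0.99 (0.92 to 1.05) in MAK683. MET (126 kb, chr7:116312250-116438431), the receptor that drives scattering and migration of epithelial cells, had 3558 and 2227 H3K27me3 counts and 1496 and 1858 in input, with levels of 1.06 (0.98 to 1.15) and 0.81 (0.72 to 0.90). The order was KIT, EGFR and MET in DMSO and EGFR, KIT and MET in MAK683, and no neighbors in these orders differed beyond counting error. These 3 of 9 genes had at least 1.5 times the input CPM in DMSO, against a background of 18.4% of genes, and the same 3 in MAK683, against 15.8%.

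ERBB4, a neuregulin receptor of heart and nervous system, lay between the groups. Its H3K27me3 counts were 16733 with DMSO and 10693 with MAK683, its input counts 12673 and 14372, and its levels 0.21 (0.18 to 0.25) and 0.13 (0.089 to 0.16). The gaps of 0.85 to MET (interval 0.76 to 0.94) and of 0.88 to ERBB2 below it (0.66 to 1.10) were the only steps between neighbors in the DMSO order that exceeded counting error. In MAK683 the steps at the same places, 0.69 from MET and 0.85 down to FGFR2, were again the only such steps. A level over 1163 kb is an average, and whether the reads lay evenly along the gene cannot be read from 1 count.

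The other 5 genes had H3K27me3 below input in both treatments. ERBB2, the ERBB family member without a known ligand (chr17:37844167-37886679), had 282 and 201 counts and levels of -0.67 and -0.73. FGFR1 (chr8:38257733-38326352) had 450 and 319 counts and levels of -0.76 and -0.85. IGF1R (chr15:99191768-99507759) had 2216 and 1840 counts and levels of -0.94 and -0.74. These levels are those of genes in the middle of the distribution, at percentiles 55.0, 49.3 and 34.9 in DMSO. FGFR2 (chr10:123237846-123357972) had 957 and 769 counts and levels of -1.04 and -0.73. PDGFRB, a receptor of pericytes and fibroblasts (chr5:149493402-149535435), had the lowest level, -1.24 in DMSO (percentile 9.44) and -0.97 in MAK683, from 297 and 244 counts. No neighbors among these 5 differed beyond counting error in DMSO. The intervals at the ends of the order, ERBB2 (-0.89 to -0.44) and PDGFRB (-1.44 to -1.04), did not overlap. The spread of the 9 levels was smaller in MAK683, with an SD of 0.84 against 1.03 in DMSO and a range of 1.95 against 2.48, and over all 21263 genes the SD was likewise 0.73 against 0.89.

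**Figure D2:**
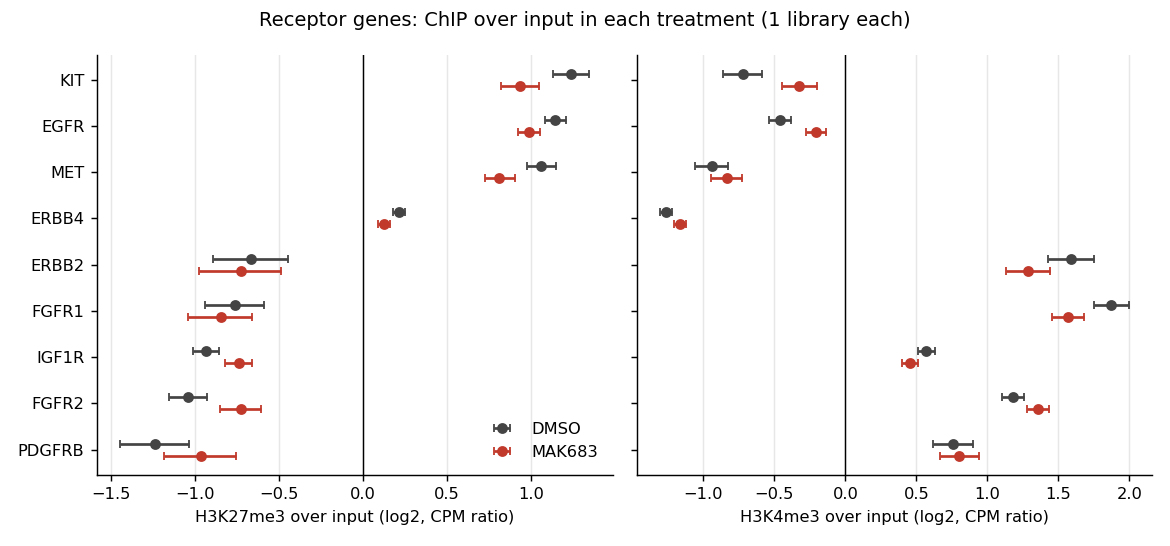
H3K27me3 (left) and H3K4me3 (right) over input on the x axes, as log2 CPM ratios, for 9 receptor genes on the y axis, with 1 library per treatment and bars giving the 95% counting interval. KIT, EGFR and MET lie between 0.81 and 1.24 for H3K27me3 in both treatments, and the 5 genes below ERBB4 all lie under 0.

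H3K4me3 ran in the other direction and separated the genes more finely. FGFR1 had the highest level, with 3111 reads under DMSO and 2513 under MAK683, against 671 and 842 of input, and a level of 1.87 (1.75 to 2.00) and 1.57 (1.46 to 1.68). ERBB2 followed with 1497 and 1198 counts and levels of 1.59 and 1.28. FGFR2, whose splice forms bind different fibroblast growth factors, had 4957 and 4796 counts and levels of 1.18 and 1.35. These genes and PDGFRB were the 4 of 9 with at least 1.5 times the input CPM, in DMSO against a background of 31.6% of genes and in MAK683 against 30.4%.

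PDGFRB, with 1316 and 1228 H3K4me3 counts and levels of 0.76 and 0.80, lay just inside that threshold of 0.58 on the log2 scale. IGF1R, with 6990 and 6214 counts and levels of 0.57 and 0.45, lay just outside it. EGFR had 2533 and 2908 H3K4me3 counts and levels of -0.46 and -0.21. The step from IGF1R down to EGFR, 1.03 in DMSO, was the widest in the order. KIT followed with 731 and 938 counts and levels of -0.72 and -0.32, MET with 984 and 1047 counts and levels of -0.94 and -0.84, and ERBB4 with 6676 and 6446 counts and levels of -1.26 and -1.16. All neighbors in the DMSO order differed beyond counting error, and in MAK683 all did except FGFR2 with ERBB2 and EGFR with KIT. H3K4me3 counts over a long gene dilute a narrow peak at its start, so a level below input in ERBB4 or EGFR does not show that the start had none.

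After MAK683 the genes with the highest H3K27me3 held a smaller share of the H3K27me3 reads, by small amounts. KIT had a change of -0.31 relative to the median gene, and 37.2% of its H3K27me3 counts were in MAK683 (35.7 to 38.7%), where the library as a whole had 41.0% and the median gene 42.4%. The change was -0.24 for MET (38.5%, 37.2 to 39.8%), -0.21 for ERBB4 (39.0%, 38.4 to 39.6%) and -0.18 for EGFR (39.3%, 38.4 to 40.2%). All 4 intervals lay below both the library's and the median gene's share. Nothing can be said on these counts about the total loss of H3K27me3, which the spike-in would measure.

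The genes with H3K27me3 below input had the same or a larger share after MAK683. IGF1R had a change of 0.17 relative to the median gene (45.4%, 43.8 to 46.9%), PDGFRB of 0.16 (45.1%, 40.9 to 49.4%) and FGFR2 of 0.13 (44.6%, 42.2 to 46.9%). Of these, IGF1R exceeded both the library's and the median gene's share. FGFR2 exceeded the library's share, but its interval included the median gene's share, and PDGFRB exceeded neither. ERBB2 and FGFR1 had changes of -0.046 and -0.054, which turned to 0.040 and 0.031 relative to the library totals, and their intervals included the library's share. Read over input instead, the difference between MAK683 and DMSO was 0.31 for FGFR2 (0.15 to 0.48) and 0.19 for IGF1R (0.086 to 0.30). Intervals that included 0 were those of PDGFRB, 0.27 (-0.020 to 0.56), ERBB2, -0.061 (-0.38 to 0.26), and FGFR1, -0.085 (-0.34 to 0.17). The difference was -0.25 for MET (-0.37 to -0.13), -0.16 for EGFR (-0.25 to -0.069) and -0.089 for ERBB4 (-0.14 to -0.040). Over all 21263 genes the median H3K27me3 level itself moved from -0.75 in DMSO to -0.56 in MAK683. With the input change subtracted and relative to the median gene, FGFR2 was at 0.23 and IGF1R at 0.11. The input of FGFR2 was itself low in MAK683, with 51.9% of its input counts there (50.2 to 53.5%) against 53.7% of the input library.

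PDGFRA, from 94 H3K27me3 counts in all, had a change of -0.63 and 31.9% of its counts in MAK683 (22.7 to 42.3%), an interval that included the library's share. Together with KIT it made 2 of 10 genes that were at least 1.2-fold lower than the median gene, against a background of 24.4% of 29931 genes with at least 10 counts and 10.9% of genes with at least 1000 input counts. With the change of the input subtracted PDGFRA dropped out and MET came in, and relative to the library totals KIT dropped out. None of the 10 was at least 1.2-fold higher, where the background was 24.1%, and 14.8% of genes with at least 1000 input counts.

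**Figure D3:**
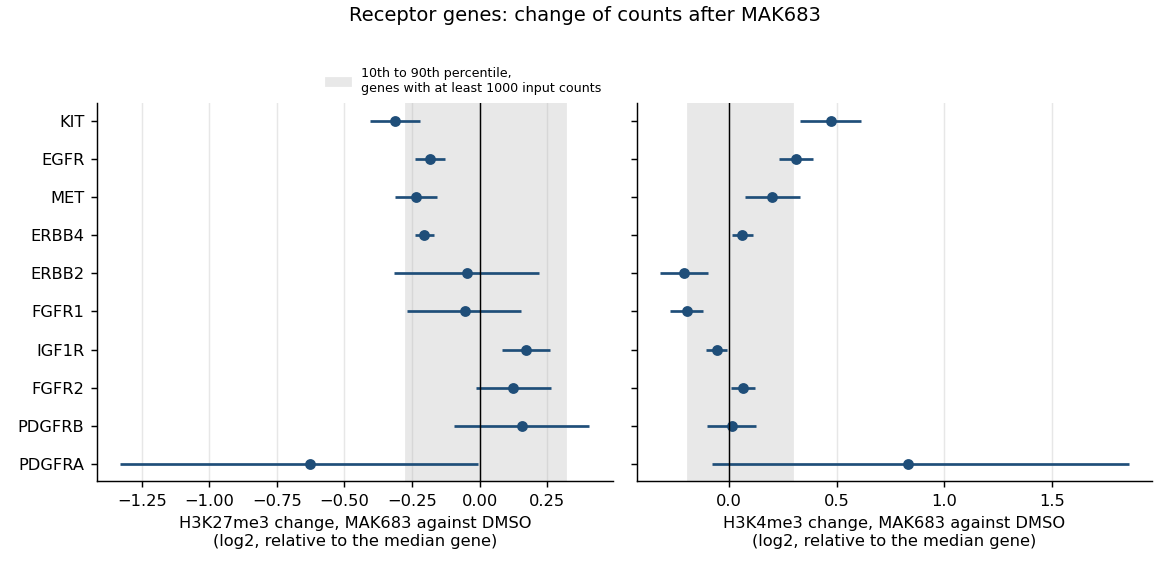
Change of H3K27me3 (left) and H3K4me3 (right) counts from DMSO to MAK683 on the x axes, log2 relative to the median gene, for 10 receptor genes on the y axis with 95% counting intervals, and in grey the 10th to 90th percentiles of genes with at least 1000 input counts. KIT, EGFR and MET lie to the left for H3K27me3 and to the right for H3K4me3, and the interval of PDGFRA is the widest in both panels.

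The same genes held more of the H3K4me3 reads after MAK683. KIT had a change of 0.47 relative to the median gene, with 56.2% of its H3K4me3 counts in MAK683 (53.8 to 58.6%) where the library had 48.0%. EGFR had a change of 0.31 (53.4%, 52.1 to 54.8%) and MET of 0.20 (51.6%, 49.4 to 53.7%). The order of the 3 genes by this change was KIT, EGFR and MET. Over input, the difference was 0.40 for KIT (0.21 to 0.59) and 0.25 for EGFR (0.15 to 0.36), and that for MET, 0.11, included 0 (-0.053 to 0.27), its input count being relatively high in MAK683 (55.4%, 53.7 to 57.1%). H3K4me3 nevertheless stayed below input in all 3 genes in MAK683. The median H3K4me3 level over all 21263 genes was -0.25 in DMSO and -0.12 in MAK683. EGFR and KIT with PDGFRA, whose 43 counts gave 0.83 and an interval of the share from 46.7 to 77.0%, made 3 of 10 genes at least 1.2-fold higher, against a background of 24.1% of 30028 genes and 13.4% of genes with at least 1000 input counts. With the change of the input subtracted, EGFR was at 0.24 and no longer among them.

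ERBB2 and FGFR1, the 2 genes with the highest H3K4me3 over input, held less of the H3K4me3 reads after MAK683. FGFR1 had a change of -0.19 (44.7%, 43.4 to 46.0%) and ERBB2 of -0.21 (44.5%, 42.6 to 46.4%), both below the library's share, and the differences over input were -0.31 (-0.47 to -0.14) and -0.30 (-0.52 to -0.082). IGF1R was lower by less, with a change of -0.057 (47.1%, 46.2 to 47.9%). None of the 10 was at least 1.2-fold lower, against a background of 17.9% and of 3.6% of genes with at least 1000 input counts. FGFR2, ERBB4 and PDGFRB had changes of 0.065, 0.062 and 0.013 relative to the median gene. Members of 1 family did not share a direction relative to the library. Of the fibroblast growth factor receptors, FGFR2 was above its library's share (49.2%, 48.2 to 50.2%) and FGFR1 below it, and in the ERBB family EGFR was above and ERBB2 below.

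Other genes of like level showed how usual these changes were. Of 8462 genes with at least 1000 input counts, 1671 had at least 1.5 times input of H3K27me3 in DMSO, and their median change was -0.25 for H3K27me3 and 0.18 for H3K4me3. Within them MET was close to the middle, at percentile 59.4 of the H3K27me3 change and 56.0 of the H3K4me3 change. EGFR had a smaller H3K27me3 decrease than most (percentile 81.0) and a larger H3K4me3 change than most (percentile 78.1). KIT lay at percentile 23.8 for H3K27me3 and 92.9 for H3K4me3. Chosen by the level in MAK683 instead, 1388 genes gave medians of -0.25 and 0.19. Of 1366 genes with at least 1.5 times input of H3K4me3, the median H3K4me3 change was -0.15, and FGFR1 was at percentile 32.0, PDGFRB at 89.3 and FGFR2 at 94.8.

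The 3 genes nearest to KIT by Euclidean distance over its 4 levels, among the 8462 genes, were ZNF536, ANXA3 and MARCH4, at distances of 0.091, 0.11 and 0.11 log2 units. ZNF536 had 15217 and 9461 H3K27me3 counts and 4453 and 5423 H3K4me3 counts in DMSO and MAK683. ANXA3, an annexin on the same chromosome as KIT but far from it (chr4:79472901-79531605), had 1950 and 1181 H3K27me3 counts and 523 and 704 H3K4me3 counts. KIT also had the largest H3K4me3 change of the 9 receptor genes, so the same 3 genes are nearest to that member.

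The nearest measured genes resembled the receptor gene in H3K27me3 at some loci and not at others. At KIT, the next gene at higher coordinates was KDR, the receptor for vascular endothelial growth factor, 338 kb away, with a level of 0.95 in DMSO and 0.88 in MAK683. On the other side lay PDGFRA, with its few counts, and the nearest gene with at least 100 input counts was FIP1L1, whose input density is given above. At MET, CAV1, which encodes the coat protein of caveolae, lay 111 kb away and had the highest level of all neighbors, 1.71 in DMSO from 1102 counts and 1.22 in MAK683 from 641. CAV1 also had 294 and 494 H3K4me3 counts, a change of 0.86 relative to the median gene, where MET had 0.20. CAPZA2, an actin capping subunit 12.7 kb from the other end of MET, had 0.068. H3K27me3 at MET thus lay next to a gene with more on one side and a gene near input on the other.

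EGFR stood alone among its measured neighbors. SEC61G, a subunit of the protein translocation channel 259 kb away, had an H3K27me3 level of -1.19 and an H3K4me3 level of 3.14 in DMSO. LANCL2, 154 kb away, had -0.97 and 1.07. ERBB4 resembled its neighbors, with 0.072 at CPS1 and 0.43 at IKZF2, 697 and 461 kb away. All measured neighbors of ERBB2, FGFR1, FGFR2, IGF1R and PDGFRB had H3K27me3 below input, from -1.19 at ATE1 beside FGFR2 to -0.52 at ARRDC4 beside IGF1R. CSF1R, the receptor for colony stimulating factor 1, lies 0.467 kb from PDGFRB and had an H3K27me3 level of -0.76 with an H3K4me3 level of -1.01, against 0.76 for H3K4me3 at PDGFRB.

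**Figure D4:**
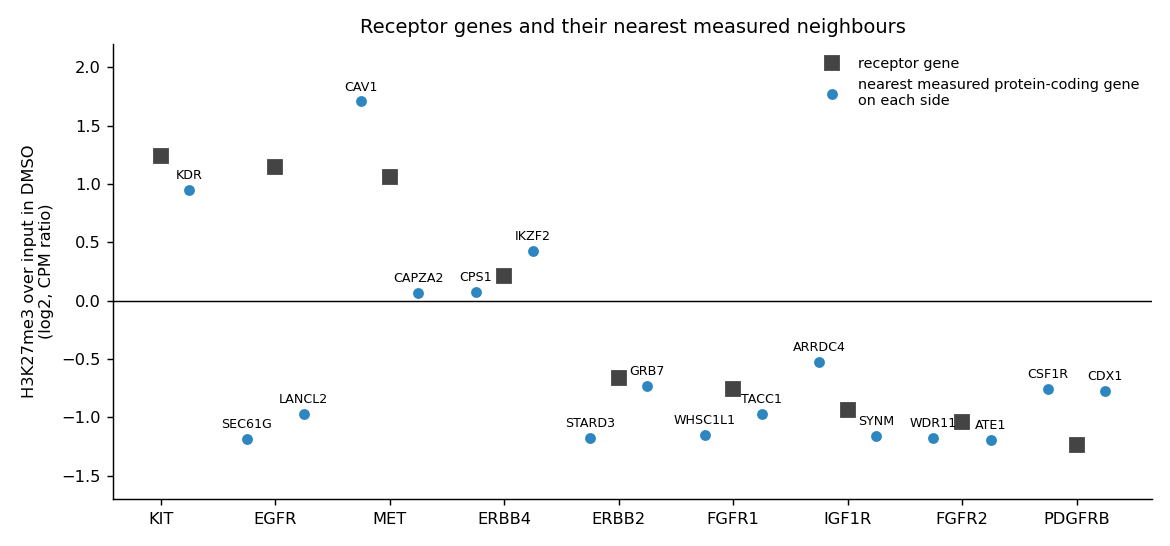
H3K27me3 over input in DMSO (y axis, log2 CPM ratio) for 9 receptor genes (squares, x axis) and the nearest measured protein-coding gene on each side (circles; FIP1L1 beside KIT is left out). The neighbors of EGFR lie at -1.19 and -0.97 while EGFR lies at 1.15, and CAV1 beside MET lies at 1.71.

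The other genes of the pathway were described from 138 listed genes. Of 46 measured genes for other receptor tyrosine kinases, 13 (28.3%) had at least 1.5 times input of H3K27me3 in DMSO, beside 18.4% of all genes. They were FLT3, FLT1, KDR, NTRK2, ALK, ROS1, TEK, EPHA4, EPHA10, EPHB1, EPHB6, ROR1 and ROR2. At least 1.5 times input of H3K4me3 was seen in 10 of the 46 (21.7%), beside 31.6% of all genes. The highest was EPHB6, an ephrin receptor without kinase activity, with 1026 and 510 H3K27me3 counts and a level of 2.62 in DMSO and 1.47 in MAK683, over 146 and 269 counts of input. EPHB1, another ephrin receptor, had 1.45 and 1.17. The largest H3K4me3 changes in this list were 0.60 in EPHB6 (209 to 294 counts) and 0.37 in ROR2, a WNT5A receptor (3672 to 4391 counts), and the lowest was -0.19 in FGFR4 (501 to 407 counts). A decrease of at least 1.2-fold in H3K27me3 relative to the median gene was seen in 12 of the 46 (26.1%). The background was 24.4% of all genes and 10.9% of those with at least 1000 input counts. An increase as large in H3K4me3 was seen in 7 (15.2%), beside 24.1% and 13.4%. The median changes of the list were -0.11 for H3K27me3 and 0.074 for H3K4me3.

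The ligand genes were the list with the highest median H3K27me3 level, and no gene of the kinase cascades inside the cell passed 1.5 times input. Of 31 measured ligand genes 13 (41.9%) had at least 1.5 times input of H3K27me3, of 29 adaptor and feedback genes 6 (20.7%, SHC3, IRS2, SPRY2, DUSP4, LRIG1 and LRIG3), and of 24 genes of the RAS-MAPK and PI3K cascades 0, beside 18.4% of all genes. The median level was 0.25 in the ligands, -0.98 in the adaptor and feedback genes and -0.97 in the cascade genes. The highest cascade genes with a mean of at least 50 H3K27me3 counts, MAPK3, an ERK kinase, and MAP2K2, a MEK kinase, had levels of -0.67 and -0.71. H3K4me3 was at least 1.5 times input in 8 of the ligands, 15 of the adaptor and feedback genes and 12 of the cascade genes, beside 31.6% of all genes. These counts are given beside the background and were not tested against each other.

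Among the feedback genes, SPRY2 and DUSP4, which restrain RAS-MAPK signaling, had both modifications above input. SPRY2 had 275 and 177 H3K27me3 counts and 225 and 737 H3K4me3 counts in DMSO and MAK683, an H3K4me3 change of 1.82 relative to the median gene, with 48 and 77 in input. Its DMSO levels were 2.31 for H3K27me3 and 1.87 for H3K4me3. DUSP4 had 950 and 527 H3K27me3 counts and 422 and 703 H3K4me3 counts, a change of 0.85. SPRY1, a relative of SPRY2, went the other way: it had 26 and 43 H3K27me3 counts, an H3K4me3 level of 5.24 in DMSO and 3486 and 2408 H3K4me3 counts, a change of -0.42. In the cascade list the largest H3K4me3 changes were smaller, 0.27 in PLCG1 and 0.10 in PLCG2, and the lowest was -0.50 in ARAF (466 to 304 counts, with 47 and 106 in input). At least 1.2-fold lower in H3K27me3 than the median gene were 14 of 36 ligand genes, 4 of 29 adaptor and feedback genes and 0 of 24 cascade genes, beside 24.4% of all genes and 10.9% of those with at least 1000 input counts. At least 1.2-fold higher in H3K4me3 were 13 of 35 ligand genes, 7 of 29 adaptor and feedback genes and 1 of 24 cascade genes, beside 24.1% and 13.4%.

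Each ligand gene was set beside a single receptor or receptor family, and other receptors that it may bind were left out. Like EGFR itself, 5 of its 6 measured ligand genes had at least 1.5 times input of H3K27me3 in DMSO, against 18.4% of all genes. TGFA had the highest level of these, 1.60 (1.51 to 1.69). Its H3K27me3 counts were 4726 in DMSO and 2740 in MAK683, where its level was 1.33 (1.24 to 1.42). EPGN had 1.12, BTC 1.08, EREG 0.91 and EGF 0.89. HBEGF, the membrane-anchored ligand, was the exception, with an H3K27me3 level of -1.31 (-1.68 to -0.96) and an H3K4me3 level of 2.16 (1.95 to 2.38). AREG had too few counts to be read. EPGN, EREG and BTC lie close together on chromosome 4 (chr4:75174187-75719733). Whether they share a single H3K27me3 domain was not tested. BTC had the largest H3K4me3 change of the measured ligand genes, 0.61 relative to the median gene (328 to 463 counts), and its H3K4me3 was below input in both treatments.

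KITLG, the ligand of KIT, resembled its receptor gene. It had 2090 and 1273 H3K27me3 counts and 783 and 962 H3K4me3 counts in DMSO and MAK683, with DMSO levels of 0.82 (0.72 to 0.93) and -0.74 (-0.88 to -0.61) and an H3K4me3 change of 0.41, beside 0.47 in KIT. HGF, the ligand of MET, had a lower level than MET, 0.38 (0.25 to 0.51), with an H3K4me3 change of -0.053. IGF1 had H3K27me3 at 0.81 (0.70 to 0.92) whereas its receptor gene had -0.94, and IGF2 had too few counts. Ligand and receptor genes were thus alike at KIT and opposite at IGF1R.

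The platelet-derived growth factor genes differed among themselves. PDGFB had an H3K27me3 level of -1.14 and an H3K4me3 level of 2.63, and PDGFA had both above input, 0.83 (0.63 to 1.04) and 1.42 (1.24 to 1.62). After MAK683 the H3K27me3 level of PDGFA was 0.10 (-0.13 to 0.34), from 594 counts in DMSO and 267 in MAK683. PDGFC and PDGFD had H3K27me3 levels of -0.013 and 0.25. The neuregulin genes, the only ligands set beside ERBB4, were near or below input, with 0.15 in NRG1, -0.34 in NRG2, -0.77 in NRG3 and -0.93 in NRG4. FGF3 had the highest H3K27me3 level of all listed ligands, 2.58 in DMSO (646 counts) and 2.07 in MAK683 (377 counts), and its H3K4me3 counts were 193 and 260, a change of 0.54. FGF20 had the lowest H3K4me3 change of the ligands, -0.21 (1331 to 1066 counts), with an H3K27me3 level of -1.25 and an H3K4me3 level of 3.20.

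**Figure D5:**
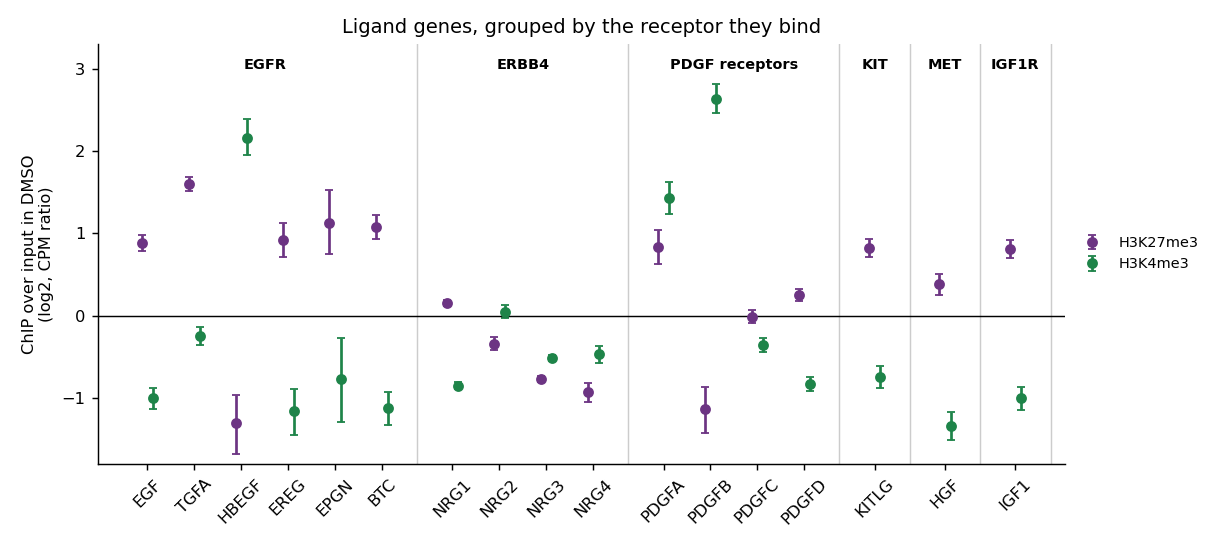
H3K27me3 and H3K4me3 over input in DMSO (y axis, log2 CPM ratio) for 17 measured ligand genes (x axis) grouped by receptor, with 95% counting intervals. The EGFR ligands EGF, TGFA, EREG, EPGN and BTC lie between 0.89 and 1.60 for H3K27me3, while HBEGF lies at -1.31 and at 2.16 for H3K4me3.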

How the data were processed

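ChIP-seq counts of H3K27me3, H3K4me3 and input libraries of G401 cells were used, 1 of each kind per treatment. The authors trimmed reads with Trim Galore 0.4.4, aligned them to hg19 with Bowtie2, removed repeated sequences with Picard 2.23.6 and deposited whole-number counts per gene from featureCounts. The deposited table carries no spike-in scaling, and the annotation used for counting is not given in the sources used here. The receptor genes, the pathway lists and most settings were chosen with earlier results of these data known, and the pairs of ligands and receptors were written after the values were seen. Symbols were looked up in GENCODE release 44 for GRCh37, where 33514 matched directly and 1839 through an older symbol (62.4% of the table). Of the 56638 genes, 18839 were at 0 in all libraries. Levels needed at least 100 counts in both inputs together, and changes at least 10 counts in 1 of the 2 libraries.

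Pathway genes were named where they had the 2 highest H3K27me3 levels or the 2 largest rises or the lowest change of H3K4me3 in their list, with a mean of at least 50 counts of that antibody. The nearest measured genes on each side, the 3 genes most like KIT and the ligands of each receptor were also named. Intervals are exact Clopper-Pearson intervals from pairs of counts, and intervals of a difference of levels come from the Poisson error of the 4 counts on the log scale. The computation was tested on simulated counts. Python 3.11.15, numpy 2.4.6, pandas 2.3.3, scipy 1.17.1 and matplotlib 3.10.9 were used. Alternatives were other scales, pseudocounts, filters and thresholds.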

Additional observations from a re-analysis of the deposited data

How the results depend on the processing

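Receptor genes with at least 1.5 times input in DMSO numbered 3 for H3K27me3 and 4 for H3K4me3. Both counts stayed within 1.5 times of this under each alternative run. ERBB4 joined the first and IGF1R the second under median-of-ratios scaling, beside 25.2% and 36.4% of all genes. The count of genes at least 1.2-fold lower in H3K27me3 was 2, beside 24.4% of all genes. Among genes with at least 1000 input counts, set against their own median, it was 1 of 8 (KIT, beside 14.7%). It was 1 at 1.5-fold (PDGFRA, beside 8.9%) and 1 relative to the library totals (PDGFRA, beside 17.9%). It became 3 with a pseudocount of 10 counts, where MET joined (beside 21.8%). With the input change subtracted it was again 2, but of KIT and MET (beside 27.9%). The count of genes at least 1.2-fold higher in H3K4me3 was 3, beside 24.1% of all genes. It became 1 at 1.5-fold (PDGFRA, beside 9.9%) and 2 with the input change subtracted (PDGFRA and KIT, beside 23.9%). Among genes with at least 1000 input counts, set against their own median, it was 2 of 8 (EGFR and KIT, beside 10.4%). PDGFRA was not among those 8 genes. The median H3K27me3 change of the receptor genes, -0.56 beside -0.44 over all genes, became -0.82 beside -0.66 with the input change subtracted, -0.034 beside 0.085 in CPM and -0.24 beside -0.12 with median-of-ratios factors. The cause was not tested beyond the change of scale itself. Median-of-ratios factors and CPM move all genes of a library alike and leave changes relative to the median gene as they are, so they were not run for single genes. Of 96 changes of single genes relative to the median gene or, in 1 alternative, to the library totals, 93 kept their sign, the exceptions being ERBB2 at 0.040 and FGFR1 at 0.031 for H3K27me3 relative to the library totals and PDGFRB at -0.016 for H3K4me3 among genes with at least 1000 input counts. Of the same 96 changes, 10 moved outside the counting interval of the main value. Levels were run under alternatives for DMSO only, and all 54 kept their sign. Of these levels 18 moved outside their counting interval, all under median-of-ratios scaling. The H3K27me3 level of EGFR, for example, went from 1.15 to 1.58. No paired analysis was possible because each treatment and antibody had 1 library.

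Without replicates, differences between chromatin preparations and differences between treatments cannot be told apart. PDGFRA rests on fewer than 100 counts in each library, and its intervals are wide.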
